A study of Mus musculus with 16 samples.

Results

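The genes described are 10 that mark macrophages in pancreatic islets, Adgre1, Csf1r, Aif1, C1qa, C1qb, C1qc, Cd68, Itgax, Lyz2 and Mrc1. They were taken by gene symbol from 2 tables of mouse islet RNA-seq values, and all 10 were present in both tables, among 17864 genes listed in either. The tables hold 16 libraries in 4 groups of 4, made from the total RNA of whole islets, so that macrophage transcripts were measured together with those of all other cells in the preparation. Flox mice were homozygous for a B7-H4 allele with loxP sites around exon 2 of Vtcn1, the gene that encodes the immune checkpoint molecule B7-H4. cKO mice carried the same alleles and the Rip-Cre transgene, B6.Cg-Tg(Ins2-cre)25Mgn/J, in which the rat insulin II promoter drives Cre recombinase in β cells. Flox mice carry no Cre, so an effect of the transgene and an effect of the deletion cannot be told apart. Flox and cKO mice ate normal chow, and the ages at which these islets were taken are not given in the sources used here. Mice of the other 2 groups received a high-fat diet (HFD) from 6 weeks of age and, after 8 weeks of the diet, an adeno-associated virus infused through the pancreatic duct. In the H-ins2-O group the virus carried B7-H4 joined to ZSGreen under the rat insulin 2 promoter, and in the H-ins2-C group it was a control virus. These islets were collected 5 weeks after infusion. The recipients are called wild type in the series description and Flox in the study's methods.

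Resident macrophages are the main leukocyte of the healthy islet. They depend on the receptor Csf1r, which binds the growth factors Csf1 and Il34, and they carry F4/80 (Adgre1), CD11c (Itgax) and lysozyme (Lyz2), whereas CD206 (Mrc1) is typical of macrophages in the exocrine stroma. C1qa, C1qb and C1qc encode the 3 chains of C1q, the recognition unit of the classical complement pathway, which tissue macrophages make in quantity. Aif1 (Iba1) is an actin-binding protein and Cd68 an endolysosomal glycoprotein of macrophages. None of the genes is exclusive to macrophages, since Itgax is also carried by dendritic cells, Lyz2 by neutrophils and monocytes, and Mrc1 by some endothelial cells.

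The C1q genes lie side by side on the minus strand of chromosome 4 (mm10). C1qb occupies chr4:136880129-136886187, C1qc chr4:136889804-136893065 and C1qa chr4:136895917-136898803, with 3616 and 2851 bases between neighbours and 18675 bases in all. The values of this cluster, and the contrast between Itgax and Mrc1, recur below. For this reason the 250 bases before the start sites of C1qb, C1qc, Itgax and Mrc1 are shown from the RefSeq promoter table (GRCm38.p6). They are read 5′ to 3′ on the strand of the gene, from chr4:136886201-136886450 (minus strand), chr4:136892915-136893164 (minus strand), chr7:128129300-128129549 (plus strand) and chr2:14229164-14229413 (plus strand). Capitals mark GAGGAA, the core letters bound by PU.1 (Spi1), the lineage factor of macrophages, or TTCCTC, the same letters on the other strand.
C1qb: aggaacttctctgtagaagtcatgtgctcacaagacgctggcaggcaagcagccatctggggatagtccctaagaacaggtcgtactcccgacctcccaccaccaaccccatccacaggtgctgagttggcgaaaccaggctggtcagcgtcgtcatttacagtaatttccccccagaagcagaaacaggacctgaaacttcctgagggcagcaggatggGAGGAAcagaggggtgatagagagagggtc
C1qc: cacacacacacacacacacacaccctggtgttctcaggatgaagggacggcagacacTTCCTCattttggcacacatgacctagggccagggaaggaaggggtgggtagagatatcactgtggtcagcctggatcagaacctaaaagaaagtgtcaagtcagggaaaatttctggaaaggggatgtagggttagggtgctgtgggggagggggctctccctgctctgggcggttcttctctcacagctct
Itgax: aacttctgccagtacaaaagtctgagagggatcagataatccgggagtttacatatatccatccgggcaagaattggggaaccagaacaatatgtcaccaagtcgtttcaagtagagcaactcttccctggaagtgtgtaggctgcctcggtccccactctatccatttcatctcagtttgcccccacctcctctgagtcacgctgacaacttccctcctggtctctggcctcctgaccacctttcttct
Mrc1: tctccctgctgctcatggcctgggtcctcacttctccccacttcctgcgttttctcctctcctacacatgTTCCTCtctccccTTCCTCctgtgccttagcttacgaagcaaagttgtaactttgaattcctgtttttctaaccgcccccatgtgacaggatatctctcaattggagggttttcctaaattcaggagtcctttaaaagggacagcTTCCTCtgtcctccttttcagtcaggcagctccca
The C1qb core began 30 bases before the start site on the strand of the gene, and that of C1qc 193 bases before it on the other strand, within the longer match GAGGAAGT. Start sites here are those of RefSeq, whereas the gene spans above are those of GENCODE. The bases shown for C1qc therefore reach into its span, which ends at chr4:136893065. Those of Itgax and Mrc1 also pass the GENCODE starts, chr7:128129547 and chr2:14229392. Mrc1 held 3 matches, all on the other strand, and Itgax none. Matches were counted in 7 of the 10 genes, without C1qa and Adgre1, which had no entry, and without Csf1r, which was set aside. No reason for leaving out Csf1r is recorded and no count was made with it, so the counts hold for the 7 only. On either strand of the 300-base window that includes the first 50 transcribed bases, 5 of the 7 genes held GAGGAA (Aif1, C1qb, C1qc, Cd68 and Mrc1), against 28.3% of 32851 promoters. GAGGAAGT was found in C1qc alone among the 7 and in 3.20% of promoters. The AP-1 letters TGANTCA were found in Cd68 and Itgax and in 7.81% of promoters, and TATAAA was in none of the 7 and in 13.6% of promoters. These are matches of letters in a window, and no binding was measured.

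Values are FPKM, fragments per kilobase of transcript scaled to the mapped fragments of the library, a scale on which genes within a library can be compared per length. Read totals are not given, and the spacing of the lowest values placed the depth of the libraries between 0.841 and 1.08 of the median of their table. In the same spacing, the scarcest of the genes was Aif1 in Flox replicate 2, at 6 steps, and Mrc1 ranged from 13 to 77 steps, whereas C1qa ranged from 316 to 4763 (values were within 0.02 of a whole step, and steps are counts up to a factor shared by all libraries). Vtcn1 was between 40.0 and 128 FPKM in H-ins2-O and between 0.0636 and 0.371 FPKM in H-ins2-C (log2 fold change 6.53, adjusted p = 5.48e-08, limma). Vtcn1 was near 0 in both chow groups, at 0.0188 to 0.216 FPKM in Flox and 0.0202 to 0.125 FPKM in cKO, and FPKM of the whole gene do not show exon 2 apart, so these values give no check of the deletion. The libraries differed in the share of FPKM taken by 27 genes of acinar cells, the enzyme-making cells of the exocrine pancreas that surround the islets. That share was 30.3%, 38.8%, 11.8% and 8.23% in Flox replicates 1 to 4 and 39.5% to 49.7% in cKO. It was 6.00%, 62.4%, 81.9% and 2.36% in H-ins2-C replicates 1 to 4 and 12.01% to 15.7% in H-ins2-O.

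The macrophage genes together took 0.00492% to 0.0818% of the summed FPKM of a library. Of 20 further macrophage genes, such as Tyrobp, Trem2, Cx3cr1 and Mertk, 19 or 20 were above 0 in each library. Several defining genes of monocytes and dendritic cells were low beside C1qa, whose median over all 16 libraries was 37.9 FPKM. Some of their maxima passed the medians of the scarcer macrophage genes Itgax and Aif1, 1.08 and 0.748 FPKM. Ly6c2, a marker of inflammatory monocytes, reached at most 2.09 FPKM and was listed at 0 in at least 1 library of the Flox, cKO and H-ins2-C groups. Flt3, a receptor of dendritic cell precursors, reached at most 0.388 FPKM. Zbtb46, also a dendritic cell gene, was between 0.367 and 1.35 FPKM in all libraries, and Clec9a and Batf3 reached 1.35 and 1.38 FPKM in H-ins2-C. Neutrophil genes were not uniformly low. S100a8 was between 0 and 5.90 FPKM in Flox and at most 0.714 FPKM elsewhere, and S100a9 reached 5.61 FPKM in Flox. Both maxima were above the highest Csf1r value of that group, 4.75 FPKM. Lymphocyte genes were not uniformly low either. The B-cell receptor component Cd79a was between 6.67 and 9.13 FPKM in H-ins2-O, above Csf1r there, and the T-cell receptor components Cd3g and Cd3e reached 6.84 and 2.87 FPKM in H-ins2-C.

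C1qa was the most abundant of the 10 genes in 14 of the 16 libraries, with a median of 37.9 FPKM over all 16. Lyz2 led in the other 2 libraries and had a median of 19.9 FPKM. C1qb and C1qc followed with medians of 13.97 and 11.02 FPKM, and these 4 genes filled the first 4 places in every library. Csf1r, Cd68 and Adgre1 had medians of 2.98, 2.08 and 1.10 FPKM, Itgax and Aif1 of 1.08 and 0.748 FPKM. Mrc1 was last in 14 of the 16 libraries, with a median of 0.270 FPKM. The middle of this order was not fixed, since Adgre1, Itgax and Aif1 had overlapping ranges and changed places from library to library. The medians span 2 tables that were normalised separately.

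**Figure D1:**
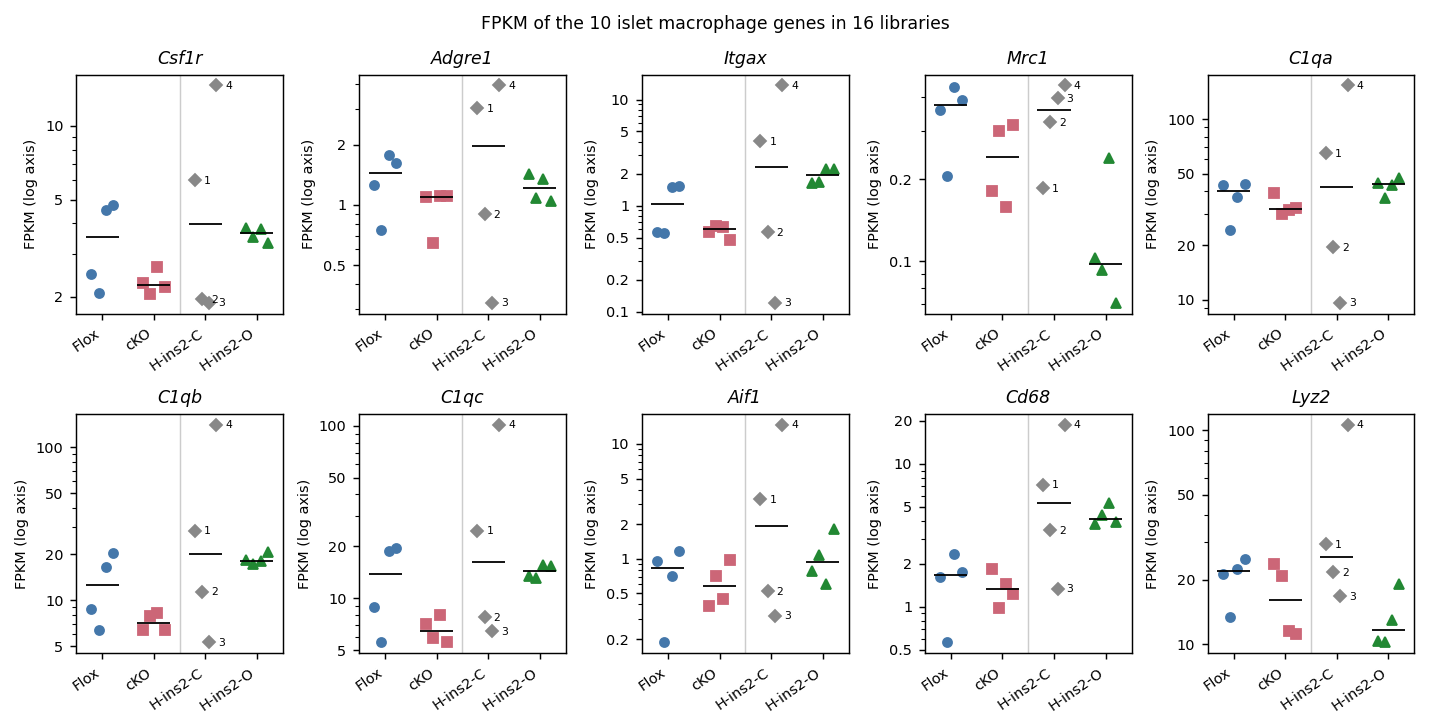
FPKM (log axis) of each macrophage gene in the 4 libraries of each group, with bars at group medians, a grey line between the separately normalised tables, and replicate numbers beside the H-ins2-C points. H-ins2-C replicate 4 is the highest library for all 10 genes, and the H-ins2-O points lie close together except for Mrc1, Aif1 and Lyz2.

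Within the control groups the genes tended to rise and fall together. H-ins2-C replicate 4 held the highest value of its group for all 10 genes and H-ins2-C replicate 3 the lowest for 9 of 10, the exception being Mrc1. Replicate 4 exceeded replicate 3 by 112-fold for Itgax, 45.9-fold for Aif1, 26.4-fold for C1qb and 6.32-fold for Lyz2, but by 1.11-fold for Mrc1. In the Flox group, replicate 2 was the lowest library for all 10 genes, and replicate 4 was the highest for 7 and replicate 3 for the other 3. The 4 H-ins2-O libraries were alike, with a coefficient of variation between 6.50% and 60.7% across the genes (median 15.5%). The corresponding median was 20.1% in cKO, 43.4% in Flox and 104% in H-ins2-C. These counts and coefficients were not computed over all genes, so they do not set the macrophage genes apart from other genes. A wide spread in H-ins2-C was common, since H-ins2-O values lay inside the H-ins2-C range for 74% of all genes tested.

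The macrophage gene total followed the reverse order of the acinar share within the H-ins2-C and Flox groups and not within the other two. The summed FPKM of the 10 genes was 171, 68.0, 42.5 and 568 in H-ins2-C replicates 1 to 4. It was 89.4, 54.1, 106 and 120 in Flox replicates 1 to 4. It ranged from 61.5 to 82.2 in cKO and from 89.1 to 115 in H-ins2-O. In cKO, replicate 2 had the highest acinar share, 49.7%, and a total of 69.6, against 65.6 and 61.5 in replicates 3 and 4. In H-ins2-O, replicate 2 had an acinar share of 12.9% and the lowest total, 89.1, whereas replicate 1 had 15.7% and 97.7. FPKM are shares of a library, so a transcript that takes a larger share lowers all others. When the acinar genes were removed and each library was rescaled to the same total, the sum was 261, 221, 272 and 838 in H-ins2-C replicates 1 to 4, so replicate 3 was no longer low while replicate 4 was still the highest. After this rescaling, the CD206-type macrophage, adipocyte, β-cell, fibroblast, duct and neutrophil lists were not highest in H-ins2-C replicate 4. The CD206-type sum was 16.4 there and 24.0 in replicate 3. The complement sum was nearly equal in H-ins2-C replicates 3 and 4, at 194.43 and 194.28, against 54.4 and 83.5 in replicates 1 and 2. Some other lists were also highest in H-ins2-C replicate 4. The endothelial sum was 1039.6 there and 213 to 682 in the other 3 H-ins2-C libraries, and the lymphocyte sum was 28.2 against 7.05 to 11.96. The monocyte sum was 7.46 against 1.32 to 2.54, and the dendritic cell sum 8.24 against 2.16 to 4.73. Their part in the macrophage values of that library was not tested. The rescaled sum, per 1000000 FPKM of the other genes, was between 113 and 190 in Flox, 159 and 184 in cKO, and 140 and 178 in H-ins2-O. In RNA from whole islets, fewer macrophages and less of these transcripts per macrophage cannot be told apart.

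**Figure D2:**
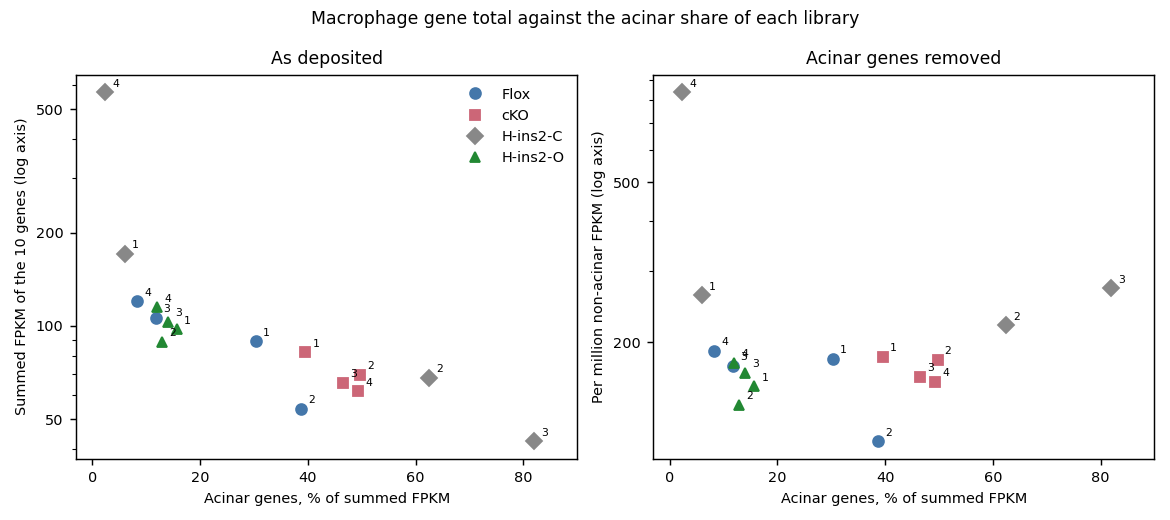
Summed FPKM of the 10 macrophage genes (left) and the same sum per 1000000 FPKM of non-acinar genes (right), both on log axes, against the acinar share of each library in percent, with replicate numbers beside the points. On the left the totals run from 42.5 at an acinar share of 81.9% to 568 at 2.36%, and on the right H-ins2-C replicate 4 stands above the other 15 libraries.

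To see whether loss of B7-H4 in β cells goes with a change in islet macrophage transcripts, cKO libraries were compared with Flox libraries. No macrophage gene passed the test. Of the 10, 9 reached a mean of 0.5 FPKM and were tested on log2(FPKM + 0.5) with limma, and 0 had an adjusted p under 0.05, 0 an unadjusted p under 0.05 and 0 an exact permutation p under 0.05. Over all 11804 genes tested, 4894 had an unadjusted p under 0.05 and 1631 (13.8%) were called. Of the genes called, 120 were higher and 1511 lower in cKO. After median-of-ratios scaling 133 were called higher and 147 lower, and after removal of the acinar genes 166 higher and 32 lower. All 9 had a lower mean log2 value in cKO, as did 86.9% of all genes. The median log2 fold change of the 9 was -0.33, beside -0.34 for all genes. The values of the 2 groups overlapped for all 10 macrophage genes, whereas the cKO libraries lay wholly below the Flox libraries in 15.4% of genes tested. For 4 of the 10, all cKO values lay inside the range of the Flox values, as they did for 23.1% of genes tested.

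The receptor Csf1r was at 2.47, 2.07, 4.52 and 4.75 FPKM in Flox replicates 1 to 4 and at 2.28, 2.05, 2.64 and 2.20 FPKM in cKO replicates 1 to 4. Flox replicates 1 and 2 lay in the same range as the cKO libraries and Flox replicates 3 and 4 lay above them. The log2 fold change was -0.44 (SE 0.23, adjusted p = 0.1399). The counting of Csf1r may hold reads of Hmgxb3, which overlaps it on the opposite strand, because use of strand is not stated.

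C1qb and C1qc had the largest differences. C1qb was at 8.77, 6.38, 16.6 and 20.3 FPKM in Flox and at 6.44, 7.85, 8.30 and 6.42 FPKM in cKO. C1qc was at 8.88, 5.62, 18.8 and 19.5 FPKM in Flox and at 7.07, 5.86, 8.02 and 5.58 FPKM in cKO. In both, Flox replicates 3 and 4 had the highest values, and Flox replicate 1 also lay above all cKO libraries. Flox replicates 3 and 4 had the lower acinar shares of their group. The part of that share was not tested beyond the rescaling and covariate fits below. The log2 fold changes were -0.67 for C1qb (SE 0.31, adjusted p = 0.122) and -0.79 for C1qc (SE 0.37, adjusted p = 0.136).

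C1qa, the third chain of the same complex, was at 43.1, 24.4, 37.0 and 43.9 FPKM in Flox and at 38.8, 29.8, 31.4 and 32.02 FPKM in cKO. All 4 cKO values lay inside the range of the Flox values, and the log2 fold change was -0.14 (SE 0.19, adjusted p = 0.555). Itgax was at 0.566, 0.557, 1.51 and 1.54 FPKM in Flox and between 0.474 and 0.644 FPKM in cKO, with a log2 fold change of -0.44 (SE 0.23, adjusted p = 0.135). Its pattern was that of Csf1r, with Flox replicates 1 and 2 among the cKO values. Adgre1 was 1.35 ± 0.458 FPKM in Flox and 0.986 ± 0.228 FPKM in cKO (SD, n = 4), and Lyz2 was 20.6 ± 5.03 and 16.8 ± 6.37 FPKM. Aif1 was 0.754 ± 0.421 and 0.628 ± 0.268 FPKM, and Cd68 1.57 ± 0.737 and 1.38 ± 0.357 FPKM (SD, n = 4). Adjusted p-values of these 4 genes were between 0.266 and 0.823. Mrc1, below the minimum for the fit, was 0.347 ± 0.0993 FPKM in Flox and 0.238 ± 0.0806 FPKM in cKO (SD, n = 4, exact permutation p = 0.143, two-sided, smallest possible 0.0286).

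**Figure D3:**
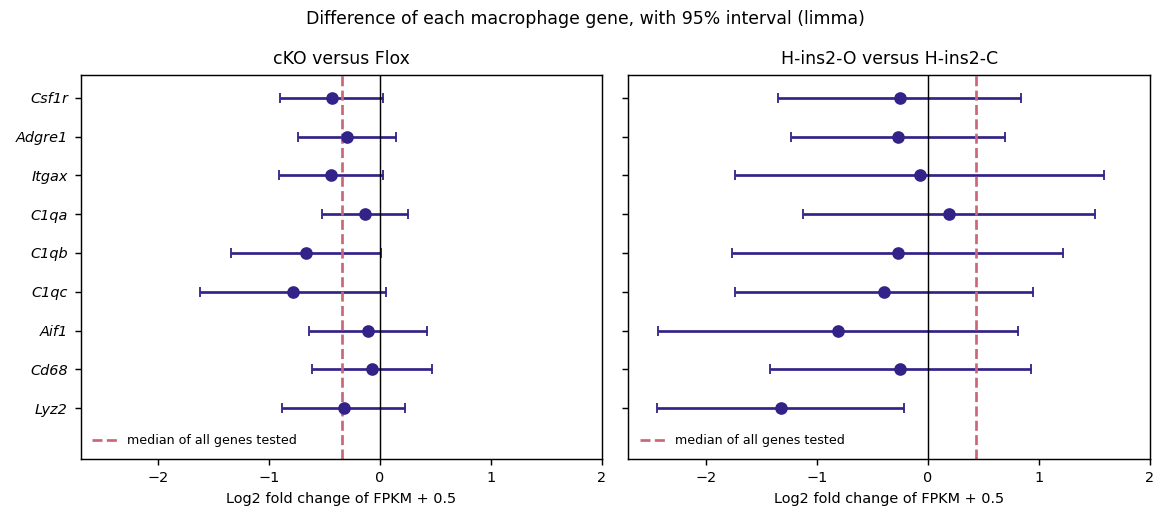
Log2 fold change of FPKM + 0.5 for the 9 macrophage genes tested in each comparison, with 95% intervals from limma. The dashed line is the median over all genes tested, -0.34 for cKO versus Flox and 0.44 for H-ins2-O versus H-ins2-C, and the interval of Lyz2 on the right alone excludes 0.

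The calls depended on which Flox libraries entered. The 3 libraries per group shown in the study's heatmaps leave out Flox replicate 2 and cKO replicate 1, and with them 7 of the 9 genes were called lower in cKO (all but Aif1 and Itgax), as were 66.1% of all genes in either direction. Without Flox replicate 2 alone, 6 of 9 were called (60% of all genes), and without Flox replicate 1 Itgax alone was called (24.2%). With Flox replicates 3 and 4 as the only controls 6 of 9 were called lower (74.5% of all genes), and with replicates 1 and 2 none was (0.0257%). These splits were chosen after the acinar shares were seen. Flox replicate 3 or 4 was the highest library of its group for all 10 genes, and replicate 2 the lowest. The choice of split therefore leans the result, and the counts give no test of the deletion. After removal of the acinar genes and rescaling, which moved the median over all genes from -0.34 to 0.05, none of 10 was called (1.55% of all genes). On that scale the log2 fold changes of Adgre1, Aif1, C1qa, Cd68 and Lyz2 turned positive, from 0.02 for Adgre1 to 0.31 for Cd68, and those of C1qb and C1qc were -0.26 and -0.38.

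Other gene lists gave the setting of these values, by counts of genes called in the same fit. Of 20 further macrophage genes, 14 were tested and 3 were called, all lower in cKO, where 13.8% of all genes were called (1511 of 11804 lower), so the count is near that share. Among them were Cd14, a co-receptor for lipopolysaccharide (log2 fold change -0.93, adjusted p = 0.0221), and Ctss, the protease cathepsin S (-0.79, adjusted p = 0.0480). Of 8 partners of C1q in the complement cascade, 6 were tested and C1s1, the serine protease of the C1 complex, was called lower, at 3.34 ± 0.967 FPKM in Flox and 1.24 ± 0.273 FPKM in cKO (SD, n = 4, adjusted p = 0.0122, limma). Among lymphocyte genes 1 was tested, Cd79a, which was lower in cKO (-1.20, adjusted p = 0.0141). Lists of other tissue cells also held genes called lower, 5 of 7 endothelial genes (Pecam1, Emcn, Esam and Cdh5 among them), 4 of 8 β-cell genes (Ins2, Ucn3, Iapp and Slc2a2) and 2 of 5 fibroblast genes (Lum and Dcn). All 27 acinar genes had higher mean log2 values in cKO and none was called, with a median log2 fold change of 1.41 and a lowest adjusted p of 0.0556. No duct, neutrophil, dendritic cell, adipocyte or CD206-type macrophage gene tested was called, and no monocyte gene reached the minimum. The part of the acinar share in any of these differences was not tested beyond the rescaling and covariate fits. With the acinar covariate, and with Flox replicates 1 and 2 as the only controls, 0 of the 14 genes named here were called, and after removal of the acinar genes 1 was.

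To see whether B7-H4 added to β cells under HFD goes with a change, H-ins2-O libraries were compared with H-ins2-C libraries. No macrophage gene passed this test either. Of 9 tested with limma, 0 had an adjusted p under 0.05, 1 (Lyz2) had an unadjusted p under 0.05, and 0 of 10 had an exact permutation p under 0.05. Over all 12132 genes, 778 had an unadjusted p under 0.05 and 4 (0.033%) were called. The mean log2 value was lower in H-ins2-O for 8 of the 9 genes, as it was for 15.8% of all genes, and the median log2 fold change was -0.27, beside 0.44 for all genes. The 4 H-ins2-O values lay inside the range of the H-ins2-C values for 8 of the 10 genes and for 74% of all genes tested. In none of the 10 did they lie wholly below it, as 0.964% of all genes did.

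Lyz2 had the largest difference. It was at 29.3, 21.7, 16.8 and 106 FPKM in H-ins2-C replicates 1 to 4 and at 10.3, 10.2, 12.98 and 19.1 FPKM in H-ins2-O replicates 1 to 4. H-ins2-O replicates 1 to 3 lay below every H-ins2-C library, and H-ins2-O replicate 4 lay above 1 of them. The log2 fold change was -1.33 (SE 0.53, unadjusted p = 0.0215, adjusted p = 0.591, limma), and the exact permutation p was 0.0571. Lyz1, a near-identical neighbour whose reads can be confused with those of Lyz2, was between 0 and 2.24 FPKM in all 16 libraries. Mrc1 was at 0.185, 0.324, 0.395 and 0.441 FPKM in H-ins2-C and at 0.102, 0.0931, 0.240 and 0.0704 FPKM in H-ins2-O. Here too 3 of the 4 H-ins2-O libraries lay below all controls (exact permutation p = 0.0571).

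For the other genes the H-ins2-C libraries spread far to both sides of the H-ins2-O libraries. C1qa was at 64.6, 19.4, 9.59 and 154 FPKM in H-ins2-C and at 44.2, 36.5, 43.1 and 47.2 FPKM in H-ins2-O. C1qb was at 28.6, 11.3, 5.33 and 141 FPKM in H-ins2-C and at 18.2, 17.3, 18.2 and 20.8 FPKM in H-ins2-O. For both chains, H-ins2-C replicates 1 and 4 lay above and replicates 2 and 3 below all H-ins2-O libraries. The same held for C1qc, Csf1r, Adgre1, Cd68, Itgax and Aif1. The 95% interval of the log2 fold change of C1qa ran from -1.13 to 1.51 and that of Csf1r from -1.35 to 0.84, so each interval held lower and higher values alike. Itgax was at 4.05, 0.562, 0.121 and 13.6 FPKM in H-ins2-C and at 1.63, 1.68, 2.21 and 2.23 FPKM in H-ins2-O (log2 fold change -0.07, SE 0.77). Aif1 was at 3.31, 0.521, 0.321 and 14.7 FPKM in H-ins2-C and at 0.783, 1.08, 0.608 and 1.80 FPKM in H-ins2-O (log2 fold change -0.81, SE 0.75, adjusted p = 0.616).

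The direction for these genes turned with the choice of control libraries. With H-ins2-C replicates 1 and 4, which had the lower acinar shares, as the only controls, 9 of 9 macrophage genes were called lower in H-ins2-O, as 24.3% of all genes were called in either direction. With H-ins2-C replicates 2 and 3, which had the higher shares, 8 of 9 were called higher and Lyz2 was not called (88.8% of all genes). Without H-ins2-C replicate 4 none was called (0.0419% of all genes) and their median log2 fold change was 0.34. Lyz2 was lower in H-ins2-O under each of these choices, with log2 fold changes of -2.09, -0.57 and -0.77. With the log2 acinar total as a covariate, Aif1 and Lyz2 were called lower, at -1.05 and -1.46 (15.2% of all genes). The splits by replicates 1 and 4 and by replicates 2 and 3 were chosen after the data were seen. For all of the 9 genes but Lyz2, replicates 1 and 4 lay above and replicates 2 and 3 below every H-ins2-O library. The directions called with each split were therefore set by the split, which gives no test of the virus.

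Removal of the acinar genes narrowed the fold range of the H-ins2-C group for every macrophage gene except Mrc1. Rescaled Lyz2 was at 44.8, 70.5, 107 and 156 in H-ins2-C and at 16.4, 16.03, 21.1 and 29.6 in H-ins2-O, with no overlap. Csf1r, C1qb and Lyz2 were the 3 of 10 macrophage genes whose rescaled H-ins2-O values lay wholly below the H-ins2-C values, and 15.2% of all genes did so. All 10 had a lower mean log2 value, as did 8663 of the 13061 genes tested on that scale. Log2 fold changes ran from -0.34 for Itgax to -2.06 for Lyz2, beside a median of -0.17 over all genes. An unadjusted p under 0.05 was found for 6 of the 10 and for 3192 of the 13061 genes. For 0 of the 10 was the adjusted p under 0.05 (0.115% of all genes), the lowest being that of Lyz2 (adjusted p = 0.0639, limma).

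No gene of the other lists was called between the virus groups. The median log2 fold change was -0.39 over 17 further macrophage genes tested and -0.37 over 6 complement partners, against 0.44 over all genes tested. It was also negative over 5 fibroblast genes (-0.69), 4 duct genes (-0.50) and 27 acinar genes (-0.39). It was 0.09 over 7 endothelial genes and 1.12 over 8 β-cell genes, all 8 of which had higher means in H-ins2-O. The ligand Csf1 was at 2.75 ± 1.55 FPKM in H-ins2-C and 3.16 ± 0.283 FPKM in H-ins2-O (SD, n = 4), and at 3.56 ± 1.09 FPKM in Flox and 2.68 ± 0.683 FPKM in cKO. Il34, the other ligand of Csf1r, was at 1.14 ± 0.770 FPKM in H-ins2-C and 0.386 ± 0.0948 FPKM in H-ins2-O (SD, n = 4, log2 fold change -0.78, adjusted p = 0.591, limma). In the chow groups Il34 was at 0.590 ± 0.165 FPKM in Flox and 0.268 ± 0.0600 FPKM in cKO (SD, n = 4), below the minimum for the fit. The ranges of Il34 did not overlap there, with 0.398 to 0.787 FPKM in Flox and 0.193 to 0.330 FPKM in cKO, and 15.4% of all genes tested showed such a lower range. Spi1 was between 0.369 and 9.89 FPKM in H-ins2-C, the highest again in replicate 4, and between 1.09 and 1.71 FPKM in H-ins2-O (log2 fold change -0.30, adjusted p = 0.784).

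Ratios between the genes within a library do not depend on the scaling of that library. C1qc and C1qb kept nearly the same ratio, between 0.688 and 1.21 in all 16 libraries, although C1qb itself varied 26.4-fold. C1qa did not keep to them. The ratio of C1qa to C1qb was 4.92, 3.83, 2.23 and 2.17 in Flox replicates 1 to 4 and 3.79 to 6.02 in cKO. It was 1.10 to 2.26 in H-ins2-C and 2.11 to 2.43 in H-ins2-O, and was lowest in H-ins2-C replicate 4, the library with the most C1q. In that library C1qa was at 154 FPKM, C1qb at 141 FPKM and C1qc at 101 FPKM. The ratio of Cd68 to Csf1r was 0.273 to 0.650 in Flox and 0.481 to 0.803 in cKO. It was 0.711 to 1.75 in H-ins2-C and 1.002 to 1.40 in H-ins2-O, so that the virus groups, on HFD, lay higher apart from 1 H-ins2-C library. Diet, virus and table cannot be told apart in that difference, and it was not tested.

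Itgax and Mrc1, CD11c and CD206 at the protein level, parted most. The ratio of Itgax to Mrc1 was 1.58 to 3.96 in Flox and 1.504 to 4.02 in cKO. It was 9.22 to 31.6 in H-ins2-O, and 21.9, 1.74, 0.307 and 30.8 in H-ins2-C replicates 1 to 4. H-ins2-C replicates 2 and 3, with acinar shares of 62.4% and 81.9%, thus had low ratios, and H-ins2-C replicate 3 was the only library of the 16 with more Mrc1 than Itgax. Over all 16 libraries Itgax varied 112-fold and Mrc1 6.26-fold. Of 8 further genes of CD206-type macrophages, Cd163 was at most 0.250 FPKM in any library, whereas Lyve1, which lymphatic endothelium also expresses, ranged from 0.867 to 20.4 FPKM in Flox. Lyve1 was between 0.521 and 0.761 FPKM in cKO, wholly below Flox, as were 15.4% of all genes tested, and was not called (log2 fold change -2.46, SE 0.90, adjusted p = 0.0971, limma). It was between 0.630 and 4.34 FPKM in H-ins2-C and between 2.03 and 2.92 FPKM in H-ins2-O.

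**Figure D4:**
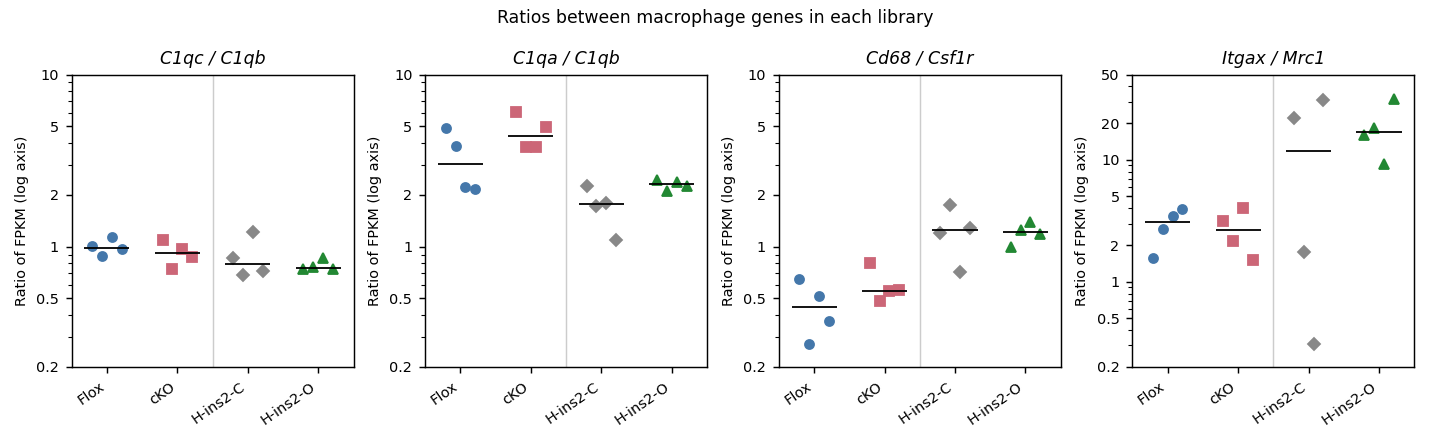
Ratios of FPKM between 4 pairs of macrophage genes in each library (log axes), with bars at group medians and a grey line between the tables. The ratio of C1qc to C1qb stays between 0.688 and 1.21, whereas that of Itgax to Mrc1 runs from 0.307 to 31.6.

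The genes most like the C1q chains were sought among 11507 genes by the SD of the log2 ratio to the geometric mean of the 3 chains over 16 libraries, centred within each table. The lowest SD was that of Hcls1, a haematopoietic cytoskeletal adaptor, at 0.209. Laptm5, H2-Eb1, Mpeg1, Csf1r, H2-Aa, Fermt3, Cxcl16, Rasa3 and H2-Ab1 followed, with SDs from 0.215 to 0.306. H2-Aa, H2-Ab1 and H2-Eb1 encode MHC class II chains and Mpeg1 a pore-forming protein of macrophages, and Csf1r was among them at 0.274. Of the other macrophage genes Cd68 ranked 65 and Adgre1 73, behind the endothelial genes Plvap (33) and Esam (54). Itgax ranked 5108 and Lyz2 6187, close to the middle of all genes, and Aif1 ranked 7327. Mrc1 was below the minimum and was not ranked. The points share their libraries, and H-ins2-C replicates 3 and 4 set much of the range. The order depended on the libraries used, since 4 of the 10 were again among the first 10 in the virus table alone and 0 in the cKO and Flox table alone.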

How the data were processed

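The authors deposited 2 tables of FPKM per gene, one for Flox and cKO and one for the 2 virus groups, normalised separately. Per the labels, islet total RNA was sequenced on a NovaSeq instrument, and the submitters' processing notes name the build mm10. The aligner and the counting tool are not given in the sources used here. Each table was fitted apart in R 4.3.3 with limma 3.58.1 on log2(FPKM + 0.5), with variance trend and robust fitting, keeping genes whose mean reached 0.5 FPKM. P-values are two-sided and Benjamini-Hochberg adjusted over all genes tested, and calls are those with an adjusted p under 0.05. Fold changes on this scale understate those of low genes. Single genes were also compared by exact permutation of 4 against 4 libraries (SciPy 1.17.1, smallest p 0.0286). The labels do not say that libraries of a group came from separate animals, so p-values measure the spread between libraries. The fit was tested on simulated data with independent noise for each gene. That test cannot show how calls behave where many genes shift together, as in these libraries. The macrophage genes and all gene lists were chosen with earlier results of these data known. Named were all 10 macrophage genes, Csf1, Il34, Spi1 and Vtcn1, up to 4 called genes per list and comparison (1 such gene is not reported here), and the 10 genes with the steadiest ratio to C1q. Alternatives changed pseudocount, filter, scaling, moderation, covariate, block and libraries. Depth in reads is unknown, so no counting interval is given.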

Additional observations from a re-analysis of the deposited data

Results flagged for a closer look

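Over 48 sets of 4 libraries, formed by the 10 macrophage genes, their sum and the acinar share in the 4 groups, a library standing far from the other 3 was looked for by Dixon's ratio, which chance alone passes in about 1 of 20 sets. It passed in 2 sets. Adgre1 in cKO replicate 2 was at 0.644 FPKM, and the other 3 cKO libraries lay between 1.09 and 1.10 FPKM. Lyz2 in H-ins2-C replicate 4 was at 106 FPKM, and the other 3 libraries lay between 16.8 and 29.3 FPKM, in the library that held the highest value of every macrophage gene in its group.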

How the results depend on the processing

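The count of 0 macrophage genes called in cKO versus Flox became 7 with the 3 libraries per group of the heatmaps, 6 with Flox replicates 3 and 4 only and 2 with the replicate block, and ranged from 0 to 6 when 1 library was left out. In H-ins2-O versus H-ins2-C it became 9 with H-ins2-C replicates 1 and 4 only, 8 with replicates 2 and 3 only and 2 with the acinar covariate, and was 0 whichever library was left out. The cause of these changes was not tested. The splits of Flox and H-ins2-C were added after the data were seen, and their counts give no test of the deletion or the virus. Over all genes, 1631 calls in cKO versus Flox became 7800 with the heatmap libraries, 0 with every gene above 0 FPKM, 280 with median-of-ratios scaling, 198 after removal of the acinar genes, 0 with the acinar covariate, 3 with Flox replicates 1 and 2 only and 8805 with replicates 3 and 4 only, and ranged from 19 to 7092 when 1 library was left out. The lowest count was without cKO replicate 2 and the highest without Flox replicate 2. The 4 calls in H-ins2-O versus H-ins2-C became 13 with every gene above 0 FPKM, 15 after removal of the acinar genes (6 higher and 9 lower), 1845 with the acinar covariate, 2993 with H-ins2-C replicates 1 and 4 only and 10471 with replicates 2 and 3 only, and ranged from 4 to 5 when 1 library was left out.

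As for the pairing, replicate numbers did not tie libraries together, since deviations of same-numbered libraries correlated between -0.215 and 0.122 in the chow table and between -0.132 and 0.102 in the virus table. The replicate block gave 2744 calls over all genes in cKO versus Flox, with C1qb and C1qc as the 2 macrophage genes, and 4 calls in H-ins2-O versus H-ins2-C.

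Signs turned mainly with the scaling and the controls. In cKO versus Flox the log2 fold change turned positive with the acinar covariate for Adgre1 (0.14), Csf1r (0.19), Aif1 (0.31), C1qa (0.19), C1qb (0.21), C1qc (0.22), Cd68 (0.53), Itgax (0.18), Lyz2 (0.11), Csf1 (0.13) and Spi1 (0.62). After removal of the acinar genes it did for Adgre1 (0.017), Aif1 (0.22), C1qa (0.30), Cd68 (0.31), Lyz2 (0.10), Csf1 (0.053) and Spi1 (0.32), and with median-of-ratios scaling for Aif1 (0.14), C1qa (0.24), Cd68 (0.22), Lyz2 (0.046), Csf1 (0.0042) and Spi1 (0.22). With Flox replicates 1 and 2 only it did for Csf1r (0.0087), Aif1 (0.14), C1qa (0.016), Cd68 (0.30), Itgax (0.022) and Spi1 (0.40), and with a pseudocount of 0.1 for Spi1 (0.011). In H-ins2-O versus H-ins2-C it turned with H-ins2-C replicates 2 and 3 only for Adgre1 (0.68), Csf1r (0.76), Aif1 (0.72), C1qb (1.20), C1qc (0.97), Cd68 (0.84), Itgax (1.58) and Spi1 (1.05), and with replicates 1 and 4 only for C1qa (-1.22) and Csf1 (-0.26). C1qa and Csf1 also turned after removal of the acinar genes (-0.52 and -0.33) and with median-of-ratios scaling (-0.35 and -0.16), and C1qa with the acinar covariate (-0.026). The heatmap libraries turned Adgre1 (0.042) and Itgax (0.15), and a pseudocount of 0.1 turned Itgax (0.25).

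When 1 library was left out, the log2 fold change in cKO versus Flox ranged from -0.37 to 0.051 for Aif1, from -0.36 to 0.11 for Cd68 and from -0.31 to 0.18 for Spi1. In H-ins2-O versus H-ins2-C it ranged from -0.71 to 0.10 for Adgre1, from -1.37 to 0.035 for Aif1, from -0.44 to 0.87 for C1qa, from -0.93 to 0.60 for C1qb, from -0.90 to 0.39 for C1qc, from -0.79 to 0.34 for Cd68, from -0.60 to 0.29 for Csf1r, from -0.75 to 0.75 for Itgax and from -0.76 to 0.43 for Spi1. Except for C1qa, each of these turned without H-ins2-C replicate 4. Lyz2 kept its sign in H-ins2-O versus H-ins2-C under every alternative run. Of the 10 genes with the steadiest ratio to C1q, 0 were again among the first 10 in the cKO and Flox table alone, 4 in the virus table alone and 5 with centring within groups.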

Other observations

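Csf2rb, the shared β chain of the receptors for GM-CSF, interleukin-3 and interleukin-5, was chosen for mention after its values were seen. It was at 8.68 to 18.6 FPKM in the 4 cKO libraries, whereas Flox ranged from 0.160 to 9.45 FPKM with a median of 0.453 FPKM. The log2 fold change was 3.25 (SE 0.92, adjusted p = 0.0596, limma), so it was not called, and the Flox and cKO ranges overlapped through a single Flox library. In the virus table it was at 0.0670 to 1.54 FPKM in H-ins2-C and 0.172 to 0.219 FPKM in H-ins2-O. Serping1, the inhibitor of the C1 complex, was also named after its values were seen. It ranged from 13.2 to 80.2 FPKM in Flox and from 7.35 to 13.2 FPKM in cKO (log2 fold change -1.68, SE 0.71, adjusted p = 0.126).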
